A study of Mus musculus with 22 samples.

Results

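The Id family was followed in the hypothalamus of lean mice given celastrol. Its members were chosen by name, as every probe set on the array whose platform symbol is Id1, Id2, Id3 or Id4, and the family was picked for its celastrol minus DMSO values in these same arrays. It comprised 4 of the 18704 genes with a symbol of their own, each read by 1 probe set: 10477169 for Id1, 10399691 for Id2, 10509163 for Id3 and 10404975 for Id4. All 4 were among the 9880 genes tested, which lay above the array median in at least 3 of 22 arrays. Id2 and Id4 did so in 22 arrays and Id1 in 21, but Id3 in only 3, of which 2 were celastrol arrays at 1 day and 1 a DMSO array at 4 days. Id3 was thus read close to the array median and was tested only through the arrays in which it read highest.

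RNA of the hypothalamus was measured on Affymetrix arrays in C57BL/6J males aged 8 weeks that had eaten normal chow for 2 weeks. Celastrol, a plant triterpenoid (from thunder god vine) known for reducing food intake in obese mice, was injected intraperitoneally in dimethyl sulfoxide (DMSO) at 25 µl per day, and the controls received DMSO at 25 µl per day. Celastrol was measured with 4 arrays at 6 h and with 3 at both 1 day and 4 days, and DMSO with 4 at each time, all described as biological replicates. The protocol text that all celastrol groups share puts a dose of 250 µg/kg after the 6 h time and a volume of 100 µl after the full list of times, and does not say whether the dose held at 1 day and 4 days. All mice were lean and no untreated group was used here, so celastrol differences are read against vehicle. Groups of the same treatment are also compared between times. Values are log2 intensities, on which a difference of 1 is a doubling.

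Id proteins are helix-loop-helix factors without the basic region that contacts DNA. They dimerise with E proteins (Tcf3, Tcf4, Tcf12) and so keep these from pairing with tissue-specific basic helix-loop-helix factors and from binding E-box sequences. Id genes are classical targets of bone morphogenetic protein (BMP) signalling through Smad proteins, and in the brain they are known for holding neural precursors and glial progenitors back from differentiation. Id2 is also known to act on the circadian CLOCK and BMAL1 pair, itself made of basic helix-loop-helix proteins.

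The promoter of Id2 is shown because Id2 was the member whose celastrol and DMSO arrays were farthest apart. It is the 250 bases before the annotated start of transcription, chr12:25096093-25096342 on the minus strand of GRCm38.p6, from RefSeq and written 5′ to 3′ on the gene's strand. Capitals mark a Smad GC-rich site (GGCGCC), an E-box (CANNTG) and CCAAT boxes (CCAAT, or ATTGG on the other strand).
Id2 promoter: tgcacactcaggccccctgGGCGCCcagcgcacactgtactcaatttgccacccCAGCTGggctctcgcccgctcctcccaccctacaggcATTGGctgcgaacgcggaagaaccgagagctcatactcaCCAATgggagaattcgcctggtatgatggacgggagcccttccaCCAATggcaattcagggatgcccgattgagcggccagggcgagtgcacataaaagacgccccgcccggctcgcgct
Both strands were searched, and the motifs found did not overlap. The Smad GC-rich site began 231 bases before the start, the E-box 196 bases before it, and the 3 CCAAT boxes 159, 120 and 76 bases before it. Of 32851 RefSeq mouse promoters of this length, 66.2% held an E-box, 33.9% a CCAAT box and 9.59% the GC-rich site. The Smad box CAGAC (in 42.2% of promoters) and the STAT site TTCNNNGAA (7.02%) were not in these letters. The Id3 window held 2 Smad boxes and none of the other motifs, and the Id4 window held 2 CCAAT boxes and 1 GC-rich site. These are matches of letters only.

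Arrays resembled each other closely, with medians between 8.58 and 8.66 and a mean correlation of each array with its group between 0.994 and 0.998. The tissue showed its defining markers: all 8 of 8 neuronal, 10 of 10 astrocyte and 7 of 7 oligodendrocyte marker genes with a probe set, and 7 of 10 hypothalamic neuropeptides, lay above the median on all arrays. None of the 7 choroid plexus and 5 pituitary markers did so on all arrays, although the pituitary gene Cga ranged from 7.12 to 11.6 between arrays. Among all genes, limma called none at 6 h and none at 1 day at an adjusted p under 0.05 (505 and 658 at an unadjusted p under 0.05), and 5 at 4 days, 3 higher and 2 lower (1 higher and 2 lower after quantile normalisation again). Leaving out single arrays moved the count at 4 days between 0 and 9. The labels give no batch. In bulk tissue, fewer cells of a type and less RNA per cell cannot be told apart.

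After 4 days, Id2 was lower in the celastrol arrays than in the DMSO arrays. It read 11.97, 11.97 and 11.99 in the 3 celastrol arrays, against 12.24, 12.36, 12.18 and 12.20 in the 4 DMSO arrays. Every celastrol array lay below every DMSO array. The means were 11.97 ± 0.01 with celastrol (SD, n = 3) and 12.25 ± 0.08 with DMSO (SD, n = 4), a difference of -0.27, or 0.828 times the DMSO level on the linear scale. This value is one of those that chose the family, so it is given as a description without a test.

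At the earlier times Id2 did not separate the groups. At 6 h it read 12.27, 12.20, 12.21 and 12.27 with celastrol, against 12.32, 12.28, 12.17 and 12.14 with DMSO, and the celastrol arrays lay inside the DMSO range. At 1 day it read 12.26, 12.11 and 12.20 with celastrol, against 12.23, 12.16, 12.19 and 12.09 with DMSO, and the ranges overlapped almost wholly. The differences were 0.01 and 0.02, both smaller than the SD of any group at that time, and both changed sign without some single arrays (from -0.02 up to 0.04 at 6 h, from -0.01 up to 0.06 at 1 day).

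The celastrol arrays at 4 days held the lowest Id2 readings of the series. The lowest of the other 19 arrays, a DMSO array at 1 day, read 12.09. Of the 9880 genes, 13 (0.132%) had all 3 of these arrays below all 19 others and 53 (0.536%) had them above. The same 3 arrays entered the choice of the family, so the shares in this paragraph are description only. Within the celastrol groups, Id2 at 4 days was 0.26 lower than at 6 h and 0.21 lower than at 1 day, with no overlap in either pair. Such a separation downwards was seen in 6.51% of all genes between 4 days and 6 h and in 4.09% between 4 days and 1 day. In order of the group means, Id2 was highest in DMSO at 4 days (12.25), then celastrol at 6 h (12.24), DMSO at 6 h (12.22), celastrol at 1 day (12.19), DMSO at 1 day (12.17) and celastrol at 4 days (11.97). Each of these groups overlapped the next except the last pair, DMSO at 1 day and celastrol at 4 days, which lay 0.19 apart.

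Read against all genes, the Id2 difference at 4 days was the 9th lowest of 9880. With Id2 itself counted, 41 genes (0.415%) differed as much in either direction. The family was picked for these values, so the ranks and shares in this paragraph are description only. The 3 celastrol arrays also lay close together, with an SD of 0.0111, against a median SD of 0.0615 over all genes in the same arrays. An SD that small or smaller was found in 236 genes (2.39%). Id1 in the same 3 arrays had an SD of 0.266, and 99.4% of genes varied as little or less.

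**Figure D1:**
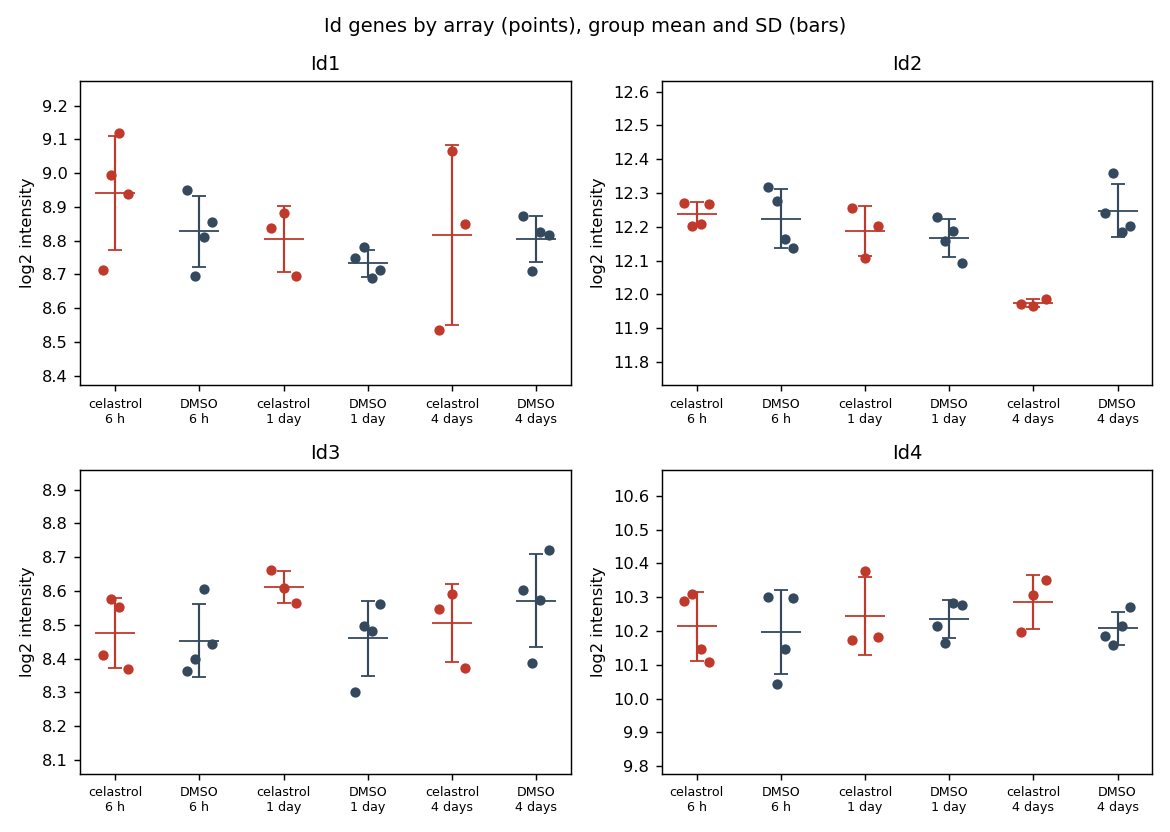
Log2 intensity of the 4 Id genes in each array (points), by treatment and time, with the group mean and SD (bars); celastrol in red, DMSO in dark blue, each panel 0.9 log2 units high and not comparable between genes in level. The 3 celastrol arrays at 4 days sit at 11.97 to 11.99 for Id2, below the other 19 arrays, while the Id1 arrays of that group spread from 8.54 to 9.06.

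Id3 was higher with celastrol at 1 day. Id3, like Id1, is known for its part in endothelial cells and in cells of the astrocyte lineage. It read 8.66, 8.61 and 8.57 in the 3 celastrol arrays at 1 day, against 8.30, 8.50, 8.48 and 8.56 in the 4 DMSO arrays. The groups did not overlap, but the lowest celastrol array and the highest DMSO array differed by less than 0.01. The means were 8.61 ± 0.05 with celastrol (SD, n = 3) and 8.46 ± 0.11 with DMSO (SD, n = 4), a difference of 0.15, or 1.11 times the DMSO level. The DMSO array at 8.30 and the celastrol array at 8.61 were the ones least like their groups over all genes, and without them the difference was 0.10. Since 2 of these celastrol arrays carried Id3 over the filter on level, it is not ranked among the tested genes. Leaving out single arrays moved the difference between 0.10 (without the first DMSO array) and 0.19 (without the fourth).

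At 6 h Id3 read 8.41, 8.58, 8.55 and 8.37 with celastrol, against 8.36, 8.40, 8.61 and 8.44 with DMSO, and at 4 days 8.55, 8.59 and 8.37 with celastrol, against 8.60, 8.39, 8.57 and 8.72 with DMSO. The groups overlapped at both times, with differences of 0.02 and -0.07. Without single arrays these lay between -0.01 and 0.07 at 6 h and between -0.13 (without the second DMSO array) and 0.00 in size (without the third celastrol array) at 4 days. By group mean Id3 was highest in celastrol at 1 day (8.61) and lowest in DMSO at 6 h (8.45), and each group overlapped the next in order.

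Id1 is the family member best known as an early BMP target. At 6 h it read 8.71, 8.99, 9.12 and 8.94 with celastrol, against 8.95, 8.70, 8.81 and 8.85 with DMSO. Of the celastrol arrays 2 lay above the highest DMSO array and the others lay within the DMSO range; the difference was 0.11, below the celastrol SD of 0.169. It was 0.05 without the third celastrol array and 0.19 without the first. At 1 day it read 8.84, 8.88 and 8.70 with celastrol, against 8.75, 8.78, 8.69 and 8.71 with DMSO, and 2 of 3 celastrol arrays exceeded all DMSO arrays, for a difference of 0.07 (0.03 without the second celastrol array and 0.13 without the third). Over all alternative settings the lowest value of this difference was 0.008.

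At 4 days Id1 read 8.54, 9.06 and 8.85 with celastrol, against 8.87, 8.71, 8.82 and 8.82 with DMSO. One celastrol array lay below and another above the whole DMSO range, and the difference of 0.01 turned to -0.01 after median centring or quantile normalisation again. Leaving out single arrays moved it between -0.11 and 0.15. The order of group means ran from celastrol at 6 h (8.94) to DMSO at 1 day (8.73), with overlap between all neighbours.

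Id4, which is known for its part in neural precursor and oligodendrocyte development, overlapped between celastrol and DMSO at every time. At 4 days it read 10.20, 10.31 and 10.35 with celastrol, against 10.18, 10.16, 10.21 and 10.27 with DMSO, and 2 of the 3 celastrol arrays lay above all DMSO arrays. The difference was 0.08, about the celastrol SD of 0.0801; it was 0.04 without the third celastrol array and 0.12 without the first. At 6 h it ranged from 10.11 to 10.31 with celastrol and from 10.04 to 10.30 with DMSO, and at 1 day from 10.17 to 10.38 with celastrol and from 10.16 to 10.28 with DMSO. The differences of 0.02 at 6 h and 0.01 at 1 day were smaller than the spread, and that at 6 h became -0.01 after quantile normalisation again. Without single arrays they lay between -0.03 and 0.05 at 6 h and between -0.06 and 0.05 at 1 day. The group means of Id4 lay between 10.29 (celastrol at 4 days) and 10.20 (DMSO at 6 h), all neighbours overlapping.

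Across the family, celastrol and DMSO did not overlap for 0 of 4 members at 6 h, for 1 (Id3, higher) at 1 day and for 1 (Id2, lower) at 4 days. Over all genes the groups did not overlap in 2.76% at 6 h, in 6.17% at 1 day (1.81% higher) and in 6.33% at 4 days (2.05% lower). By the adjusted p under 0.05 over all genes, 1 of 4 members, Id2 at 4 days, was called, against 0.0506% of all genes (0.0202% lower), and no member was called at 6 h or 1 day (0.0% of all genes each) or on the average of the 3 times (0.0607%). Of 33 alternative settings 11 could move the Id2 value, which then lay between -0.29 and -0.24, and Id2 was called in 3 of these 11. These contrasts served to choose the family, so nothing is read from the counts. Averaged over the 3 times, the differences were 0.06 for Id1, -0.08 for Id2, 0.04 for Id3 and 0.03 for Id4, against a median of 0.00 for all genes.

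**Figure D2:**
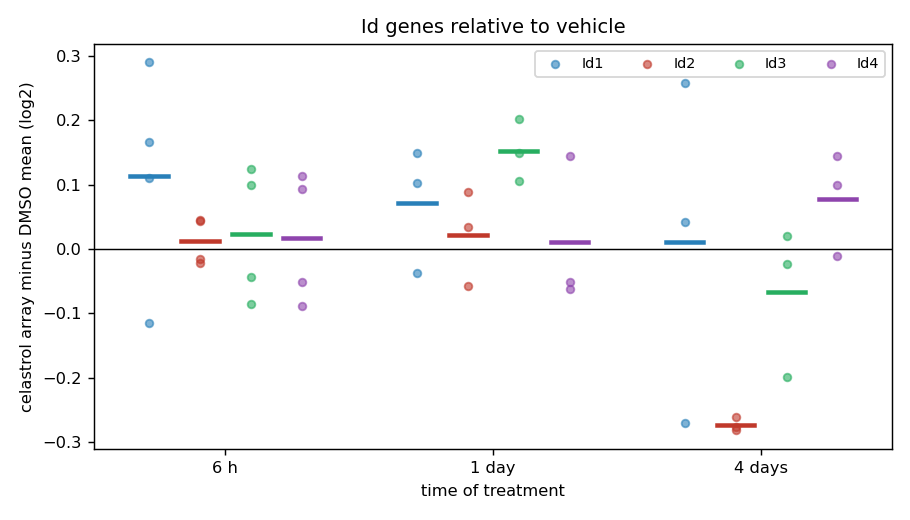
Each celastrol array (points) minus the mean of the DMSO arrays of its time, in log2 units, for the 4 Id genes at 6 h, 1 day and 4 days; horizontal bars are the mean differences. Id2 at 4 days (-0.27) and Id3 at 1 day (0.15) are the gene and time pairs whose celastrol arrays all lie on the same side of every DMSO array.

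The vehicle arrays alone show how far the family moved between times without celastrol. Between DMSO groups, Id2 differed by -0.06 between 1 day and 6 h, by 0.02 between 4 days and 6 h and by 0.08 between 4 days and 1 day. The ranges overlapped for all 4 members in all 3 comparisons, where 5.98%, 7.56% and 9.8% of all genes did not overlap (1 day against 6 h, 4 days against 6 h and 4 days against 1 day). The largest such shift in the family was 0.12, for Id3 at 4 days against 6 h.

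The genes around the Id family were read from 9 lists holding 102 genes, of which 59 were tested. The question was whether partners, upstream signals or targets of Id proteins differed in the same arrays. None was called by limma at an adjusted p under 0.05 at any time or on the average, nor under any alternative run. At an unadjusted p under 0.05, 4 were higher and 0 lower at 6 h (6.78% of 59, against 5.11% of all genes), 2 higher and 2 lower at 1 day (6.78%, against 6.66%), 0 higher and 1 lower at 4 days (1.69%, against 3.66%), and 1 higher and 1 lower on the average (3.39%, against 4.0%). By direction, the shares of all genes were 4.24% higher and 0.87% lower at 6 h, and 1.63% and 5.03% at 1 day. They were 2.55% and 1.11% at 4 days, and 2.78% and 1.21% on the average. The median difference of the 59 was 0.01 at 6 h, -0.01 at 1 day and 0.01 at 4 days, close to the 0.02, -0.01 and 0.01 of all genes.

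The E proteins, direct dimer partners of Id, differed little. At 4 days Tcf3 ranged from 9.06 to 9.35 with celastrol and from 9.15 to 9.29 with DMSO, and Tcf4 from 11.24 to 11.34 with celastrol and from 11.21 to 11.32 with DMSO. On the average of the times Tcf3 differed by -0.06 (SE 0.03) and Tcf4 by 0.04 (SE 0.03), both with a limma adjusted p of 1.00. Tcf12 differed by 0.01 at 4 days (SE 0.05, limma adjusted p = 1.00).

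Of a broad list of other basic helix-loop-helix factors, 10 of 24 were tested: Olig1, Olig2, Hes5, Hes6, Hey1, Hey2, Heyl, Bhlhe40, Bhlhe41 and Max. The list is not limited to partners of E proteins. At 4 days 4 were higher and 6 lower, with a median of -0.01. Heyl, a Notch-responsive repressor, ranged from 9.08 to 9.21 with celastrol and from 9.26 to 9.45 with DMSO at 4 days. The 2 groups did not overlap, and the difference of -0.18 (SE 0.07) did not pass (limma adjusted p = 1.00). Olig1, a factor of the oligodendrocyte lineage, ranged at 1 day from 10.59 to 10.69 with celastrol and from 10.35 to 10.58 with DMSO, a difference of 0.15 (SE 0.06, limma adjusted p = 0.698).

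Upstream, 6 BMP and TGF-β ligands were tested, and at 4 days 6 were higher and 0 lower, with a median of 0.06 against 0.01 for all genes. Bmp7 differed by 0.14 (SE 0.13) and Bmp6 by 0.11 (SE 0.18), each less than its error or about it, and no ligand passed. At 1 day the same list held 1 higher and 5 lower. Of all genes, 56.4% were higher at 4 days and 41.2% at 1 day. Of the receptors 8 of 10 were higher at 4 days (median 0.03). Bmpr2, the type II receptor for BMPs, ranged from 12.59 to 12.69 with celastrol and from 12.55 to 12.70 with DMSO. The secreted antagonists Nbl1, Twsg1 and Bmper, which bind BMPs outside the cell, were higher in 3 of 3 at 4 days (median 0.06), with differences of 0.15, 0.06 and 0.01. The antagonist median at 1 day was -0.10.

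The Smad transducers carried no called difference. Smad5 and Smad9, which BMP receptors phosphorylate, differed by 0.01 and 0.02 at 4 days, and Smad9 at 6 h by 0.10 (SE 0.05, limma adjusted p = 0.895). Of 6 feedback genes and targets tested, 4 were higher and 2 lower at 1 day. At a limma unadjusted p under 0.05, 1 was higher and 1 lower. Among the 6 was Smad7, the inhibitory Smad induced by the pathway it blocks. Smad7 ranged at 1 day from 8.98 to 9.17 with celastrol and from 8.76 to 8.99 with DMSO. Its differences were -0.05 at 6 h, 0.17 at 1 day (SE 0.05, limma adjusted p = 0.698) and 0.08 at 4 days. Hey1, which responds to Notch and BMP signals, differed by 0.12 at 1 day (SE 0.07) and by 0.00 in size at 4 days.

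Cell cycle and clock genes, the other settings in which Id2 is studied, also did not pass. Cdkn1b, the cyclin-dependent kinase inhibitor p27, ranged at 6 h from 10.38 to 10.47 with celastrol and from 10.20 to 10.43 with DMSO, a difference of 0.12 (SE 0.05, limma adjusted p = 0.895). Rb1, the retinoblastoma protein that Id2 binds, differed by -0.02 at 4 days. Of 13 clock genes, 5 were higher and 8 lower at 4 days, and 7 were higher and 6 lower on the average. Cry2, a repressor of CLOCK and BMAL1, was below the DMSO mean of its time in all 10 celastrol arrays, with an average difference of -0.05 (SE 0.03, limma adjusted p = 1.00). It was named for its small p on this same average, so the count of arrays is no separate evidence.

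**Figure D3:**
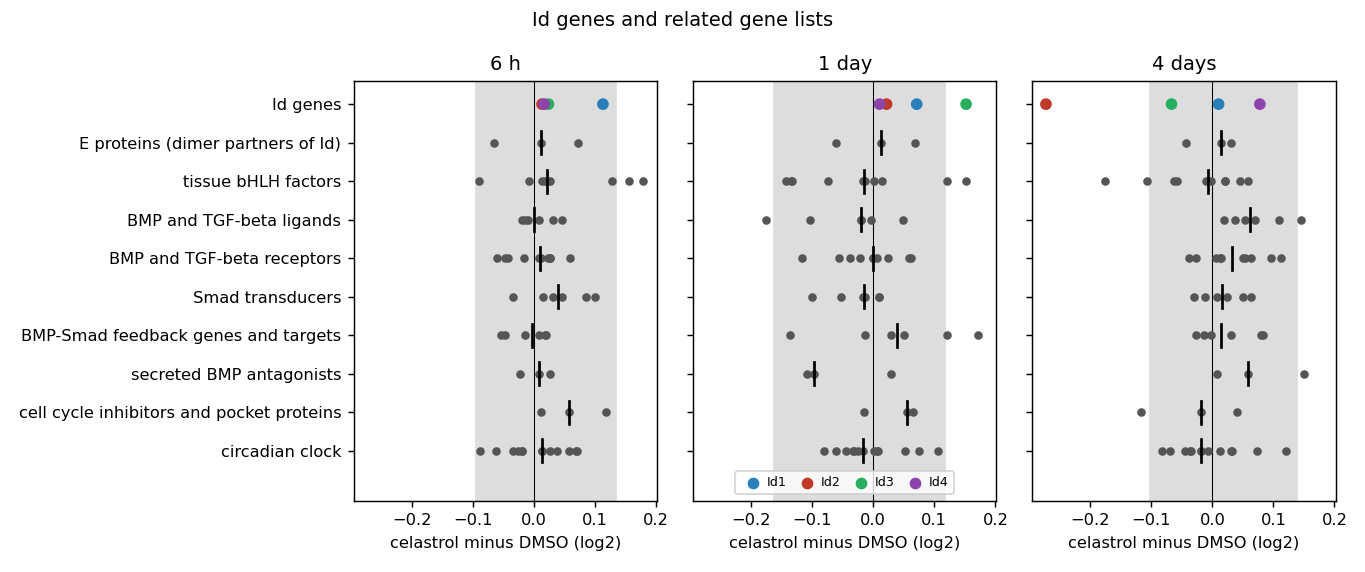
Celastrol minus DMSO differences (log2) at 6 h, 1 day and 4 days for the Id genes (coloured points) and the tested genes of 9 related lists (grey points, medians as black ticks); the grey band holds the central 95% of all tested genes. Id2 at 4 days (-0.27) lies far outside the band, but this value is one of those that chose the family. No listed gene reaches that size, which was found in 0.415% of all genes.

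Cell markers were set beside the Id2 reading at 4 days. Of 10 marker lists, only the microglial list separated the groups at 4 days: its mean level ranged from 8.79 to 8.83 with celastrol and from 8.62 to 8.74 with DMSO, a mean difference of 0.13. Of its 7 genes with a probe set 6 were higher with celastrol, and 4 lay above the array median on all arrays, led by Csf1r, which differed by 0.19 (SE 0.05, limma adjusted p = 0.360). At 6 h and 1 day the microglial ranges overlapped. Single genes without overlap at 4 days made up 6.33% of all genes, and no such share was computed for list means. Astrocyte markers ranged from 11.29 to 11.33 with celastrol and from 11.24 to 11.38 with DMSO at 4 days, and neuronal markers from 12.28 to 12.31 with celastrol and from 12.29 to 12.33 with DMSO. Oligodendrocyte markers ranged from 11.62 to 11.72 with celastrol and from 11.68 to 11.77 with DMSO, with 1 of 7 higher and 6 lower. Endothelial markers ranged from 9.26 to 9.35 with celastrol and from 9.15 to 9.34 with DMSO, a mean difference of 0.07, with 9 of 12 higher. Among them, named after their values were seen, Vwf, which encodes von Willebrand factor, differed by 0.46 (SE 0.09, limma adjusted p = 0.0709) and the angiopoietin receptor Tek by 0.24 (SE 0.05, limma adjusted p = 0.123), and neither passed. Against a share of 56.4% higher over all genes, 8 of the 11 endothelial genes tested were higher and 3 lower. At a limma unadjusted p under 0.05, 3 of them were higher and 1 lower. The pituitary list ranged from 7.18 to 9.63 with celastrol and from 7.01 to 7.81 with DMSO, a mean difference of 0.51. The mean differences of the other lists were 0.05 for tanycytes and ependyma, 0.04 for mural and leptomeningeal cells, 0.02 for hypothalamic neuropeptides and -0.01 for choroid plexus, all overlapping. The part of microglial or other cells in the Id2 difference was not tested.

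**Figure D4:**
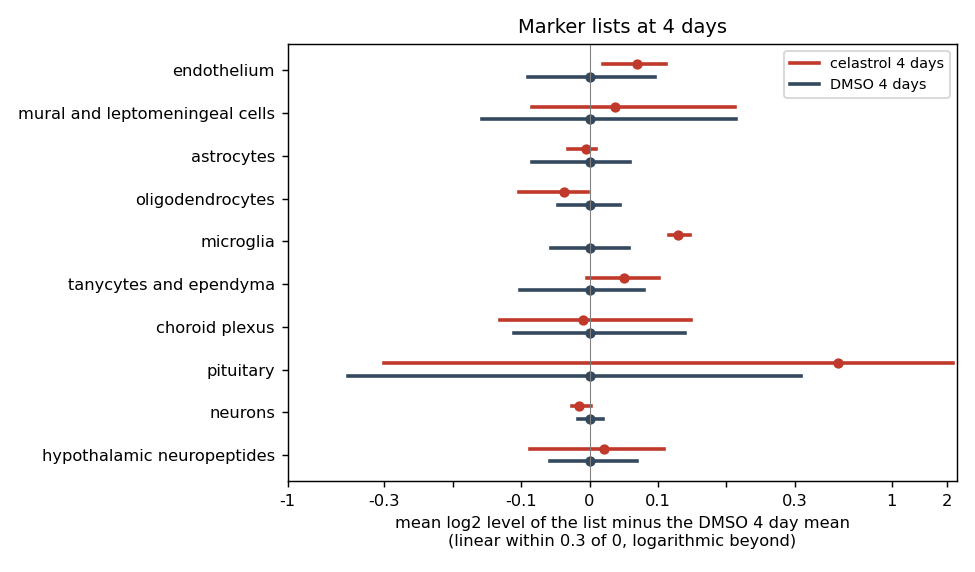
Mean log2 level of each of 10 marker lists at 4 days, relative to the DMSO mean of that list; lines span the lowest to the highest array and points are group means, celastrol (red) above DMSO (dark blue). The axis is linear within 0.3 of 0 and logarithmic beyond; the microglial list alone shows no overlap, 8.79 to 8.83 with celastrol against 8.62 to 8.74 with DMSO.

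How the members varied among arrays of the same group was examined through each array's deviation from its group mean, which the treatment difference does not enter. Over 22 arrays, Id2 and Id3 deviated in opposite directions, with Pearson's r = -0.66 (permutation p = 0.00235, adjusted p = 0.108) and Spearman's rho = -0.60 (permutation p = 0.00643, adjusted p = 0.285). The adjustment covered 46 relations, those among the Id genes and with the 10 marker lists, and the relation did not pass it. Without the 2 arrays farthest out in Id3, r was -0.52. It was -0.34 in the 10 celastrol arrays and -0.79 in the 12 DMSO arrays; the difference between these was not tested. Without the first celastrol array at 1 day r was -0.75 and passed (adjusted p = 0.0161).

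None of the 46 relations passed in all 22 arrays, and 4 had an unadjusted permutation p under 0.05. Besides Id2 with Id3, these were Id4 with the neuronal markers (r = 0.63, permutation p = 0.0173, adjusted p = 0.265; rho = 0.60, p = 0.0186, adjusted p = 0.285), Id4 with the hypothalamic neuropeptides (r = 0.56, permutation p = 0.0156, adjusted p = 0.265; rho = 0.58, p = 0.0135, adjusted p = 0.285) and Id1 with the oligodendrocyte markers (r = 0.58, permutation p = 0.0270, adjusted p = 0.310; rho = 0.53, p = 0.0383, adjusted p = 0.440). Without the 2 arrays farthest out in the marker list, r was 0.47, 0.44 and 0.43. Without the fourth celastrol array at 6 h, Id4 with the neuronal markers reached r = 0.79 and passed (adjusted p = 0.0377). Id2 had r = 0.06 with the microglial list and r = -0.05 with the astrocyte list.

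**Figure D5:**
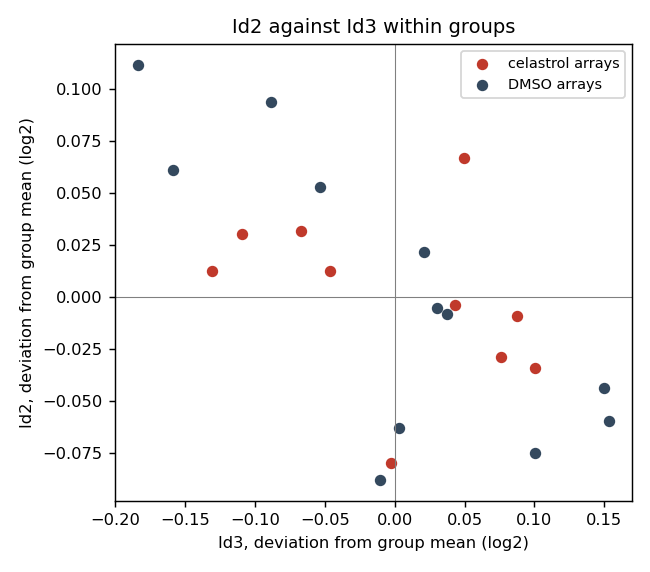
Deviation of Id2 (vertical) against that of Id3 (horizontal) from the group mean, in log2 units, for 10 celastrol arrays (red) and 12 DMSO arrays (dark blue). Arrays high in Id3 for their group tend to be low in Id2 (r = -0.66), which did not pass adjustment over 46 relations.

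Of 9637 genes compared, those whose deviations were most like those of Id2 over the 22 arrays were Il33 (r = 0.81), an alarm cytokine, Taf9b (0.78), a subunit of the general transcription factor TFIID, Cgref1 (0.71), Ndn (0.70), the imprinted gene of necdin, and Mrnip (0.70). These were selected as the highest, so their r carries no test, and the points share their arrays. At 4 days their celastrol minus DMSO differences were -0.09 for Il33, 0.02 for Taf9b, -0.05 for Cgref1, 0.07 for Ndn and -0.09 for Mrnip, all smaller in size than the -0.27 of Id2.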

How the data were processed

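Hypothalamic RNA was extracted with Trizol and columns, labelled with biotin and hybridised to Affymetrix arrays, per the labels' protocols. The authors deposited log2 intensities from RMA (background correction, quantile normalisation and summary of probes), per the submitters' processing notes; RMA version, genome build and annotation: not given in the sources used here. There were 23492 probe sets on 22 arrays, values spanning 3.83 to 15.2, and 0 pairs of identical arrays. Of the probe sets 20228 had 1 symbol, 1399 several and 1865 none; for the 809 genes with several probe sets the brightest was kept. The 9880 genes tested exceeded the array median on 3 or more arrays.

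Groups came from the labels. All 22 arrays entered a linear model of 6 group means (limma 3.58.1 under R 4.3.3, functions lmFit and eBayes, with 16 residual degrees of freedom), two-sided, with Benjamini-Hochberg adjustment over all tested genes. Within-group correlations used 100000 two-sided permutations within groups. The members and lists were chosen with earlier results of these data known. Named were the Id genes, from each related list up to 2 genes with the smallest p on the average of the times, the brightest gene of a marker list, and for each Id gene the 5 genes with the most similar within-group deviations; Tcf12, Bmp6, Bmp7, Bmper, Vwf, Tek and the value of Csf1r at 4 days were added after their values were seen. Alternatives were other filters (none, or above the median in 11 arrays), averaged probe sets, array weights, repeated quantile normalisation, robust eBayes, median centring, a replicate block, limma-trend, a fit to only the groups compared, and leaving out each array. The fits were tested on simulated data. The number of arrays limits the precision. Figures were drawn with matplotlib 3.10.9.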

Additional observations from a re-analysis of the deposited data

Results flagged for a closer look

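Among the Id genes no array lay far from the others of its group by Dixon's test, which was applied to groups of 4 arrays only. Of 88 such groups over 22 Id and related genes, 4 held such an array, where chance gives about 5%. The receptor Tgfbr2 read 8.74 in the fourth DMSO array at 6 h, the nearest other array reading 8.81. The receptor Bmpr2 read 12.40 in the first DMSO array at 1 day, the nearest reading 12.54. Smad5 read 9.93 in the third DMSO array at 6 h, with the nearest at 9.86, and the BMP antagonist Nbl1 read 9.17 in the first DMSO array at 6 h, with the nearest at 9.07.

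For 2 of the 22 genes every celastrol array lay on one side of the DMSO mean at one time and on the other side at another. For Smad7 the celastrol minus DMSO difference was 0.17 at 1 day and -0.05 at 6 h, which is 0.23 apart, and 0.08 at 4 days and -0.05 at 6 h, which is 0.14 apart. For Twsg1, a secreted BMP-binding protein, it was 0.06 at 4 days and -0.10 at 1 day, which is 0.15 apart. These differences between times were not tested. No share of all genes with such a pattern is given, so nothing is read from the count.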

How the results depend on the processing

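Of 33 alternatives, 22 leave the Id2 difference at 4 days as it is by construction and bear only on its call; the other 11 gave -0.29 to -0.24. The contrast at 4 days was among those that chose the family, so a call of Id2 is not a test. Id2 was among the called genes in 13 of the 33, and in 3 of those 11. It was not called with no filter, robust eBayes, only the groups compared or the replicate block, nor without any of these single arrays: DMSO 6 h replicate 3, DMSO 1 day replicate 1, 3 or 4, any DMSO array at 4 days, any celastrol array at 6 h, celastrol 1 day replicate 3 or any celastrol array at 4 days. Of the 12 celastrol minus DMSO differences of the Id genes by time, 6 changed sign under at least 1 alternative: Id1 at 4 days (-0.11 to 0.15), Id2 at 6 h (-0.02 to 0.04) and 1 day (-0.01 to 0.08), Id3 at 6 h (-0.01 to 0.07), and Id4 at 6 h (-0.03 to 0.05) and 1 day (-0.06 to 0.05). All 6 were at most 0.02 in size. Id3 at 1 day ranged from 0.08 (array weights) to 0.19. Leaving out the 2 least typical arrays was chosen after seeing the data.

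Counts of genes called over all genes depended on the settings; the cause was not tested. At 4 days the 5 became 3 with no filter, 8 with limma-trend, 1 with robust eBayes, 16 with array weights, 3 with quantile normalisation, 3 without the 2 least typical arrays, and 0 to 9 when single arrays were left out. It was 0 when any of these was left out: among celastrol arrays, replicates 2 and 4 of 6 h, replicate 3 of 1 day, and replicates 1 and 2 of 4 days; among DMSO arrays, replicates 3 and 4 of 1 day, and replicates 1, 3 and 4 of 4 days. At 1 day the 0 became 1 with no filter, 5 with array weights and 0 to 4 without single arrays (4 without celastrol 6 h replicate 3). On the average the 6 became 1 with the stricter filter. For DMSO at 1 day against 6 h the 0 became 10 with the stricter filter, 12 with limma-trend, 10 with robust eBayes, 13 with array weights, 2 without the least typical arrays, and 0 to 46 without single arrays (46 without DMSO 6 h replicate 3). For DMSO at 4 days against 6 h the 25 became 1 with no filter, 45 with limma-trend, 105 with array weights, 0 with only the groups compared, 52 without the least typical arrays, and 0 to 147 without single arrays (147 without DMSO 6 h replicate 3). For DMSO at 4 days against 1 day the 15 became 1 with no filter, 24 with the stricter filter, 47 with limma-trend, 25 with robust eBayes, 168 with array weights, 0 with only the groups compared, 29 with the mean of probe sets, 37 with quantile normalisation, 5 without the least typical arrays, and 1 to 22 without single arrays. Correlations passing numbered 0 to 1 without single arrays.

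With the replicate number as a block within each time, which in effect drops the fourth DMSO arrays at 1 day and 4 days, the Id2 difference at 4 days was -0.29, 0 genes were called at 4 days and 1 for DMSO at 1 day against 6 h. The labels do not say whether equal numbers mark pairs. Over 10 pairs the correlation of deviations lay between -0.24 and 0.41, with 2 pairs over 0.1. Of the pairs, 2 correlated best with their own number, so these values do not settle it.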

Other observations

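The genes whose within-group deviations were most like those of the other Id genes, over 22 arrays and 9637 genes, are given as values only. For Id1 they were Rhoa (r = 0.81), a small GTPase of the cytoskeleton, Nipal4 (0.77), Chrna7 (0.75), a nicotinic receptor subunit, Sike1 (0.74) and Slc39a1 (0.73), a zinc transporter. For Id3 they were Hmgxb3 (0.81), Abca1 (0.78), a cholesterol exporter, Fn1 (0.76), which encodes fibronectin, Denn2b (0.75) and Dvl3 (0.74), a Wnt pathway scaffold. For Id4 they were Sertad2 (0.79), Tcf20 (0.78), Mmd (0.78), Dlx2 (0.76), a homeobox factor of GABAergic neurons, and Rplp1 (0.75), a ribosomal protein. At 4 days Fn1 was the one of these with the largest celastrol minus DMSO difference in size, 0.21, and Rplp1 differed by 0.17 and Nipal4 by -0.17.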
